A study of Mus musculus with 6 samples.

Results

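Inhibins, activins and anti-Müllerian hormone (AMH) are secreted dimers of the TGF-beta family, and their genes were followed here in cultured Sertoli cells, which nurse the germ cells in the tubules of the testis. The set is 10 genes chosen by symbol, Inha, Inhba, Inhbb, Amh, Fst, Acvr2a, Acvr2b, Acvr1b, Amhr2 and Tgfbr3, of 49203 gene symbols in the transcript tables. A gene's level was the sum of the authors' FPKM (fragments scaled by transcript length and library depth) over the transcripts that carry its symbol, scaled between libraries. Total RNA was sequenced from 6 mouse Sertoli libraries, 3 labelled GFP-positive (replicates 2, 4 and 7, phenotype green) and 3 labelled GFP-negative (replicates 9, 11 and M, phenotype non-green). The series' design text describes Sertoli cell lines that do or do not express GFP from the Y chromosome. Strain, age, the reporter's promoter, and whether replicates are separate lines, clones or cultures are not given in the sources used here. The p-values therefore measure the spread between these libraries, which may be technical. The GFP transcript was not analysed here.

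An inhibin alpha subunit (Inha) joined to a beta A (Inhba) or beta B (Inhbb) subunit makes inhibin, while beta subunits joined to each other make activin. Activin binds the type II receptors Acvr2a or Acvr2b, which recruit the type I receptor Acvr1b and lead to phosphorylation of SMAD2 and SMAD3. Inhibin occupies the type II receptors with the co-receptor betaglycan (Tgfbr3), and follistatin (Fst) binds activin outside the cell. Sertoli cells are known as the testis source of inhibin B, which restrains pituitary FSH, and of AMH, which acts through its own type II receptor Amhr2.

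The libraries held 8.25 to 11.8 Gb of aligned bases, recovered from coverage and FPKM. Counting error cannot be given, since the tables hold FPKM and coverage. Of 20 Sertoli markers, 17 passed the filter of a mean of 0.5 scaled FPKM, Sox9, Wt1, Clu and Cldn11 among them, while Rhox5, Defb45 and Tsx did not. Their summed level was 2129 to 3564 in the GFP-positive libraries and 1101 to 3609 in the GFP-negative ones, lowest in GFP-negative 11. Clu was the largest part of it in each library (518 to 2801). Of the 17 tested, 2 were called higher in GFP-positive (Dmrt1 and Cst9) and 3 lower (Sox9, Gata4 and Vim). Over all features tested, 14.5% were called higher and 11.4% lower. Vim lost the call with unnamed isoforms added, and Cst9 with libraries scaled to an equal sum of FPKM or the length trend removed. Both lost it with no filter on low values and without GFP-positive 4, GFP-positive 7 or GFP-negative M. GFP-negative 9 was the GFP-negative library nearest to the GFP-positive ones on the leading principal component (20.2, against 69.2 in M, 87.7 in 11 and -65.8 to -50.2 in GFP-positive). Germ cell markers summed to 35.2 to 153 in the GFP-positive and 1.39 to 3.05 in the GFP-negative libraries. Of their 9 tested members 7 rose, against 14.5% of all features tested that were called higher. The spermatid genes Prm1 and Prm2 were listed at 0 throughout.

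All 10 genes passed the filter, and Inhba was the member that passed the test. It was lower in the GFP-positive libraries, with a log2 difference of -3.14 for the transcripts that carry its name and of -1.47 when the unnamed isoforms of its locus were added. The other 9 genes did not pass, so 1 of 10 members was called, against 25.9% of the 15117 genes and unnamed loci tested (14.5% higher and 11.4% lower in GFP-positive). The groups did not overlap for Inhba and Acvr1b, 2 of 10, against 45.7% of all features tested. The median log2 difference was -0.12 over the members and 0.02 over all features. With libraries scaled instead to an equal sum of FPKM, the median of all features moved to -0.87, the calls were Inhba, Acvr2a (-1.12), Acvr1b (-1.57) and Tgfbr3 (-1.67), and Inha, Inhbb, Amh, Amhr2 and Acvr2b turned from above to below 0. These libraries are bulk RNA, in which fewer cells of a type and less RNA per cell cannot be told apart.

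**Figure D1:**
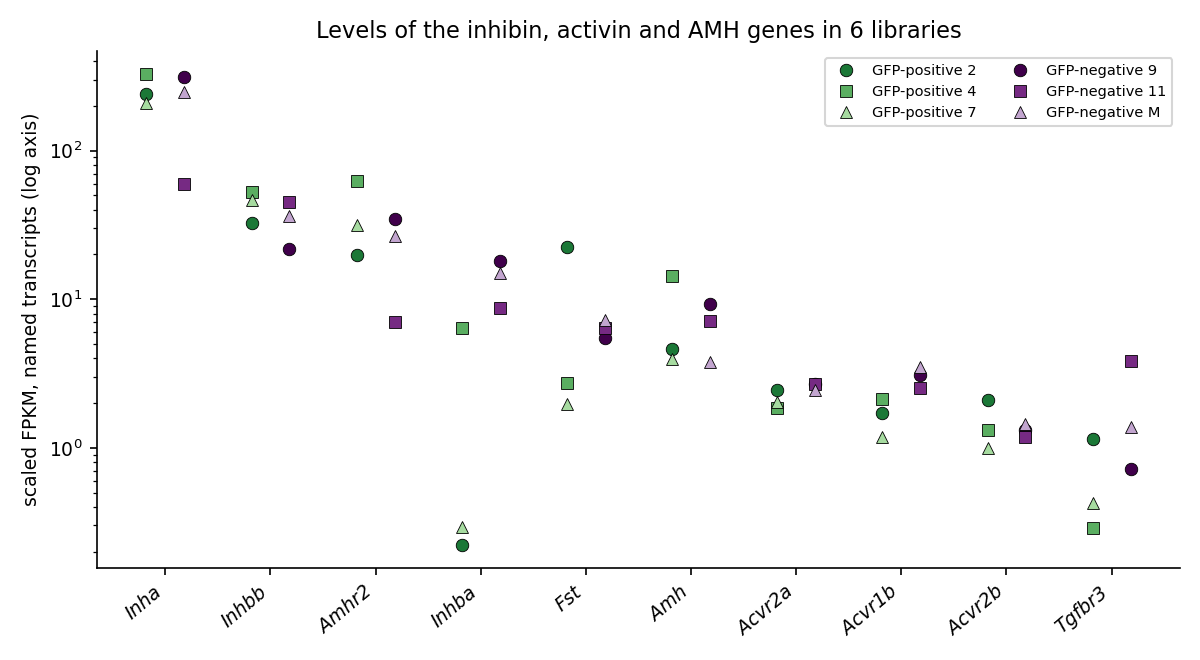
Scaled FPKM of each gene in each library on a log axis, genes in order of their mean; green symbols are GFP-positive and purple symbols GFP-negative libraries. Inha is the highest gene in each library, GFP-negative 11 is the lowest library for Inha and Amhr2, and Fst is highest in GFP-positive 2.

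By mean level the order was Inha, Inhbb, Amhr2, Inhba, Fst, Amh, Acvr2a, Acvr1b, Acvr2b and Tgfbr3. The lowest Inha value (59.2) lay above the highest Inhbb value (52.8), and the lowest Amh value (3.80) above the highest Acvr2a value (2.69). Every other pair of neighbours in this order overlapped in range. Inha, Inhbb, Amhr2 and Amh stood above the activin receptors Acvr2a, Acvr2b and Acvr1b in each library, whose values ran from 1.00 to 3.47. Named Inhba transcripts lay below that range in GFP-positive 2 and 7.

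Inha, the subunit that makes a dimer an inhibin, stood at 239.8, 326 and 209.9 scaled FPKM in GFP-positive 2, 4 and 7 and at 312, 59.2 and 247 in GFP-negative 9, 11 and M. The gene (chromosome 1, 75483721 to 75487010, mm39) has a single transcript of 2 exons in the tables. The groups overlapped, and GFP-negative 11 was the low library. The mean was 259 ± 60.4 (SD, n = 3) for GFP-positive and 206 ± 131 for GFP-negative. The log2 difference of 0.61 (95% interval -0.71 to 1.94) did not pass (limma adjusted p = 0.444), and without GFP-negative 11 it was -0.16. GFP-negative 11 was also the lowest library for the Sertoli genes Clu (518), Cldn11 (102) and Dhh (8.85), chosen after their values were seen. Fibroblast markers summed to 1164 there, against 288 in M, 51.8 in 9 and 43.2 to 64.9 in the GFP-positive libraries. Most of the sum in GFP-negative 11 was Col1a1 (691) and Col1a2 (444), while the fibroblast marker Dcn was lowest there (1.58). The part of fibroblasts in the low Inha value was not tested.

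Inhba, which encodes the beta A subunit of activin A and inhibin A, was lower in each GFP-positive library than in any GFP-negative one. Its named transcripts stood at 0.223, 6.41 and 0.292 scaled FPKM in GFP-positive 2, 4 and 7 and at 18.2, 8.73 and 15.1 in GFP-negative 9, 11 and M. Means were 2.31 ± 3.55 and 14.0 ± 4.83, with GFP-positive 4 nearest to the GFP-negative range. The log2 difference was -3.14 (SE 0.79, 95% interval -4.92 to -1.35, limma adjusted p = 0.0233). That call was lost without GFP-positive 2 (-2.55, adjusted p = 0.0667), GFP-positive 7 (-2.62, 0.0893) or GFP-negative M (-3.08, 0.0860). It was also lost when low features were kept in the fit (adjusted p = 0.104). With the unnamed isoforms added, the values were 6.56, 6.44 and 10.3 in GFP-positive and 18.3, 25.0 and 22.9 in GFP-negative libraries. The GFP-positive values of 2 and 7 were then close to that of 4, the means were 7.76 ± 2.18 and 22.1 ± 3.44, and the log2 difference was -1.47 (SE 0.27, 95% interval -2.08 to -0.87, adjusted p = 0.00947; -1.47 and 0.0545 without GFP-negative M). On that definition 30.3% of all features tested were called, and 13.7% of all features tested were called lower in GFP-positive.

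The definitions differ in which models of the assembled locus they count (chromosome 13, 16186436 to 16210407, plus strand). It holds 3 long models that share their end, the named one of 5 exons and 10591 nt and a pair of unnamed ones of 4 exons with 10534 and 10300 nt, and a named model of 3 exons and 2042 nt. Both named models carry the same consensus coding sequence in GENCODE M21. The unnamed models took 96.6% of the locus in GFP-positive 2, 0% in GFP-positive 4 and 97.1% in GFP-positive 7. In GFP-negative 9, 11 and M they took 1.64%, 65.0% and 34.3%. The named long model was listed at 0 in GFP-positive 7 and GFP-negative 11, where an unnamed one held 9.31 and 14.7 scaled FPKM. A library's level of the named transcripts was therefore set in part by which of these overlapping models its reads were assigned to.

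**Figure D2:**
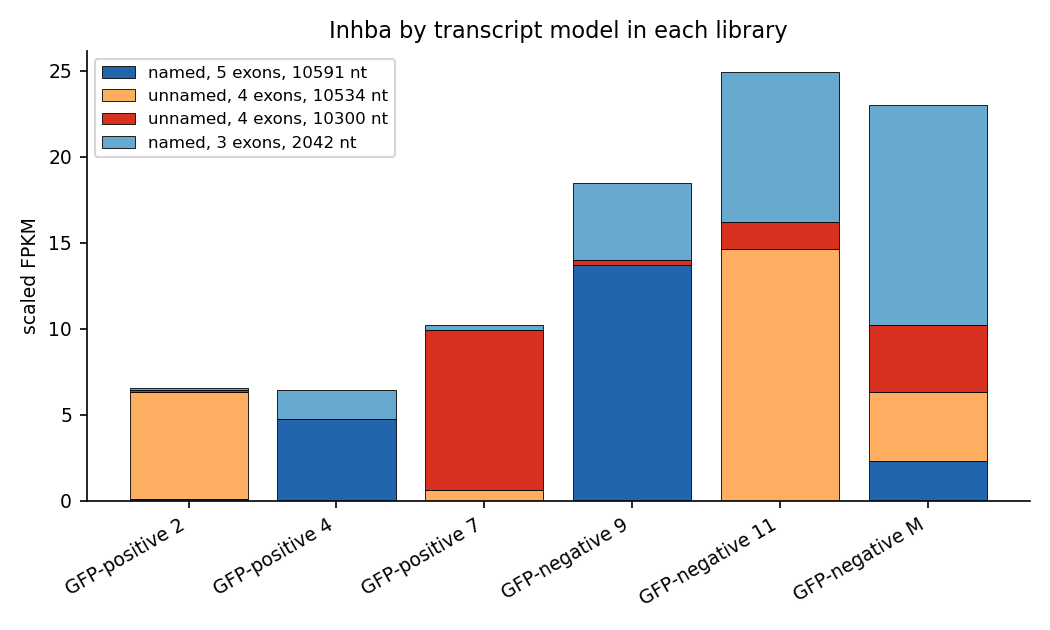
Scaled FPKM of the 4 Inhba transcript models stacked for each library. The long models change places from library to library, whereas the short named model is between 4.52 and 12.8 in the GFP-negative libraries and at most 1.67 in the GFP-positive ones.

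Taken apart by length, both kinds of Inhba model were lower in the GFP-positive libraries. The 3 long models summed to 6.43, 4.74 and 9.95 scaled FPKM in GFP-positive 2, 4 and 7 and to 14.0, 16.2 and 10.2 in GFP-negative 9, 11 and M. The short model stood at 0.138, 1.67 and 0.292 in GFP-positive and at 4.52, 8.73 and 12.8 in GFP-negative libraries. The groups did not overlap in either, and the short model had the wider gap, with means of 0.699 ± 0.842 and 8.68 ± 4.14. No test was made on single models. The genes on the opposite strand of this locus, B230303A05Rik and Gm48444, reached at most 0.871 and 0.104.

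The summed markers of several other cell types were also lower in the GFP-positive libraries. Summed granulosa markers were 9.32 to 11.7 in the GFP-positive and 16.0 to 18.3 in the GFP-negative libraries, macrophage markers 1.93 to 2.57 and 3.83 to 8.94, and endothelial markers 3.49 to 6.31 and 7.67 to 12.4. In the GFP-negative libraries each sum was mostly 1 gene, Runx1 (9.90 to 16.1), Lyz2 (2.16 to 6.15) and Cdh5 (7.07 to 11.0) in turn. Other markers went the other way, with higher GFP-positive means for Hsd17b1 and, below the filter, for Nr5a2, Irx3, Mrc1 and Pecam1. The granulosa list had 2 of 8 genes above the filter, of which Runx1 fell and Hsd17b1 was not called (log2 difference 0.78). Foxl2 and Cyp19a1, which define that cell type, were below the filter. Cyp19a1 was at 0 in 5 libraries, and Foxl2 was at most 0.0487 in GFP-positive and 0.118 to 1.65 in GFP-negative libraries. The macrophage list had 2 of 6 above the filter, of which Lyz2 fell and Cd68 was not called (log2 difference 0.24). The endothelial list had 1 of 4, which did not pass. The summed markers of 3 further cell types overlapped between the groups, while single genes among them fell. These were the smooth muscle genes Myh11 (log2 change -2.50, adjusted p = 0.0464) and Actg2 (-2.19, 0.0411) of 7 tested peritubular myoid markers, whose sum was 134 to 1875 in GFP-positive and 353 to 938 in GFP-negative libraries. Insl3, a Leydig cell hormone gene, fell (-1.64, adjusted p = 0.0489), 1 of 5 tested, with sums of 36.0 to 86.6 and 72.8 to 89.1. The collagen gene Col1a1 fell (-4.25, adjusted p = 0.0380), 1 of 6 tested fibroblast markers, whose sum was 43.2 to 64.9 in GFP-positive libraries and 51.8, 1164 and 288 in GFP-negative 9, 11 and M. Over all features tested 11.4% were called lower in GFP-positive, and these counts of called markers are not read as a result. Runx1, Myh11, Actg2, Insl3 and Col1a1 each lost the call with no filter on low values. Each also lost it on leaving out any GFP-positive library or GFP-negative M. Lyz2 lost it with no filter on low values and without GFP-positive 7 or GFP-negative M. The part of any of these cell types in the Inhba difference was not tested.

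Inhbb, the beta B subunit of inhibin B and activin B, did not pass the test. It stood at 32.5, 52.8 and 46.5 scaled FPKM in GFP-positive 2, 4 and 7 and at 21.9, 45.3 and 36.5 in GFP-negative 9, 11 and M, from a single transcript (chromosome 1, 119343195 to 119349978). The groups overlapped, at 43.9 ± 10.4 and 34.6 ± 11.8, with a log2 difference of 0.37 (95% interval -0.39 to 1.14, adjusted p = 0.417). GFP-negative 11, low in Inha, was the highest GFP-negative library for Inhbb.

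The sequences before the starts of the beta subunit genes are shown for reference, and no link between them and the levels was tested. RefSeq promoters (build GRCm38.p6) matched 7 of the 10 genes by symbol, and the 250 bases before the annotated start of Inhba (chr13:16011601-16011850, plus strand) and Inhbb (chr1:119422249-119422498, minus strand) read as follows, 5′ to 3′. Capitals mark TATAAA or GGGCGG on either strand.
Inhba: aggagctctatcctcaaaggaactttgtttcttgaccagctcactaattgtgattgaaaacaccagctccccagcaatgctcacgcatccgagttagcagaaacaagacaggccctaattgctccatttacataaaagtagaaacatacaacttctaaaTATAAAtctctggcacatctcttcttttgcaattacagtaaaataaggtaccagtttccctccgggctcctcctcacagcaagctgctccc
Inhbb: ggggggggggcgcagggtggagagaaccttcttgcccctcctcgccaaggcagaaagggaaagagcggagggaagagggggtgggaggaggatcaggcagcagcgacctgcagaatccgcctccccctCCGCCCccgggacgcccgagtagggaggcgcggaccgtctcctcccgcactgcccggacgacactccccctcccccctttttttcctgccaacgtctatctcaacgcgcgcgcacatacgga
The Inhba window was 43.2% G and C, against 68.0% in Inhbb, and held the TATA-type motif TATAAA, which starts 91 bases before the start. Among all 32851 promoters, 12.4% had TATAAA on either strand, and of the 7 matched genes Inhba did. The GC box GGGCGG was in 5 of the 7 (Inhbb, Amhr2, Acvr2a, Acvr2b and Acvr1b) and in 32.7% of all promoters. The cAMP response element TGACGTCA was in none of the 7 and in 1.55% of all. The Inha window lies after the transcript start that GENCODE M21 gives in the same build. The Inhba window ends where the named long transcript starts in GENCODE M21, and does not cover the downstream starts in the tables, at 16188832 and 16189060 (mm39). The models from those starts, of 10300 and 2042 nt, held up to 91.0% (GFP-positive 7) and 55.6% (GFP-negative M) of the locus. A match of letters is a description and not a binding site.

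The balance of subunits within a library does not depend on how libraries are scaled, apart from a pseudocount of 0.5. With all models of Inhba, the log2 ratio of Inhba to Inhbb was -2.22, -2.95 and -2.13 in GFP-positive 2, 4 and 7 and -0.24, -0.85 and -0.65 in GFP-negative 9, 11 and M. The GFP-positive ratios were all lower, by 1.85 (SE 0.32) or 3.61-fold. For named transcripts the difference was -3.51 (SE 1.10). Each had an exact two-sided permutation p of 0.1, the smallest that 3 against 3 libraries allow, and 0.4 when adjusted over the 4 ratios compared.

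**Figure D3:**
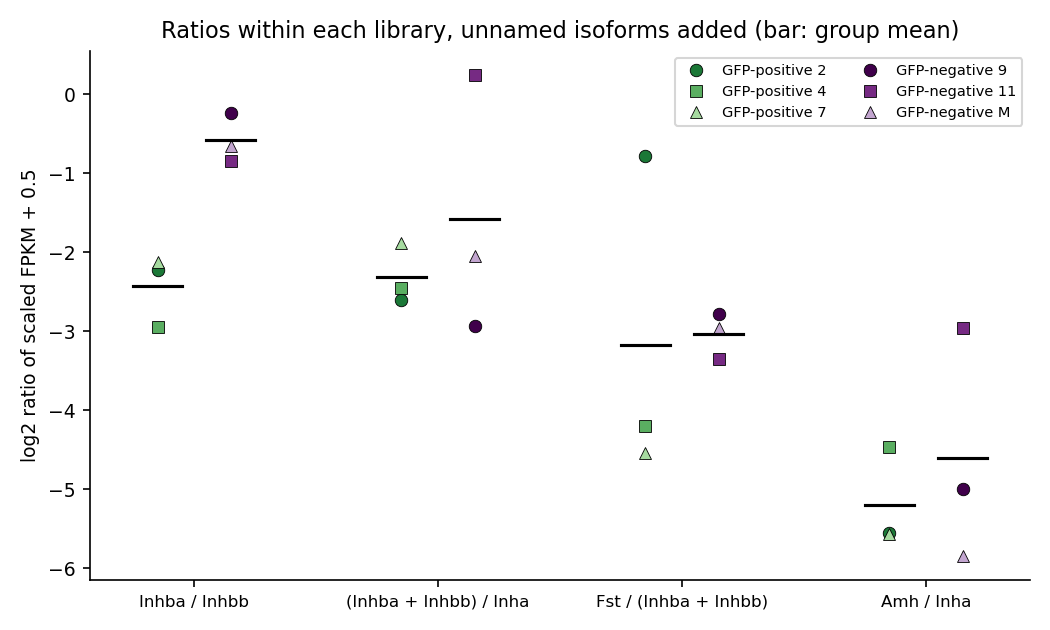
Log2 ratios of scaled FPKM within each library, with the unnamed isoforms added, symbols as in the plot of levels and bars at the group means. The ratio of Inhba to Inhbb separates the groups, whereas the other ratios overlap.

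The other ratios overlapped between groups. The sum of Inhba and Inhbb over Inha had log2 values of -2.85, -2.45 and -2.16 in GFP-positive and -2.94, -0.13 and -2.25 in GFP-negative libraries for named transcripts. GFP-negative 11 stood apart, with beta subunits near the level of alpha, and the difference of -0.71 (exact permutation p = 0.7) was 0.11 without that library. Fst over the beta subunits differed by -0.17 (exact permutation p = 1.0), and Amh over Inha by -0.59 (exact permutation p = 0.7).

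Amh, which encodes anti-Müllerian hormone, was at a low level beside Inha in both groups. It stood at 4.60, 14.3 and 3.94 scaled FPKM in GFP-positive 2, 4 and 7 and at 9.26, 7.16 and 3.80 in GFP-negative 9, 11 and M. GFP-positive 4 was the high library, and the groups overlapped, at 7.60 ± 5.78 and 6.74 ± 2.75. The log2 difference was 0.02 (95% interval -1.11 to 1.14, adjusted p = 0.982). The annotated Amh transcript (chromosome 10, 80641077 to 80643554) shares an assembled locus with its upstream neighbour Sf3a2, a splicing factor gene on the same strand. An unnamed model of 14 exons and 5410 nt (80631945 to 80643554) runs through both genes. It stood at 2.19, 3.27 and 2.19 in GFP-positive and at 3.63, 9.98 and 7.45 in GFP-negative libraries, with no overlap. As a share of this model and Amh together it held 32.3%, 18.6% and 35.7% in GFP-positive and 28.2%, 58.2% and 66.2% in GFP-negative libraries. Reads in Amh exons can be assigned to either, so the Amh level of GFP-negative 11 and M depends on that assignment. Over the whole assembled locus, a sum that also holds the Sf3a2 transcripts, the log2 difference was -0.60 (adjusted p = 0.252).

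Fst, which encodes the activin-binding protein follistatin, was uneven among the GFP-positive libraries. It stood at 22.5, 2.75 and 1.96 scaled FPKM in GFP-positive 2, 4 and 7 and at 5.45, 6.43 and 7.22 in GFP-negative 9, 11 and M (chromosome 13, 114588826 to 114595487). GFP-positive 2 lay above all GFP-negative libraries and GFP-positive 4 and 7 below them. The log2 difference of -0.27 (95% interval -1.92 to 1.39) did not pass (adjusted p = 0.802). Without GFP-positive 2 it was -1.25 and passed (adjusted p = 0.0363). The coding transcript of 2833 nt held the largest share, 17.5, 2.17 and 1.07 in GFP-positive and 4.54, 3.66 and 5.10 in GFP-negative libraries, and those of 1853 and 1478 nt were at most 2.90 and 0.999. The high value is thus that of 1 library, in which summed germ cell markers were also highest (153, against 35.2 and 55.1 in GFP-positive 4 and 7). Their part in it was not tested.

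The activin receptors were near the lower end of the set. Acvr1b, the type I receptor that phosphorylates SMAD2 and SMAD3, stood at 1.70, 2.11 and 1.18 scaled FPKM in GFP-positive 2, 4 and 7 and at 3.10, 2.52 and 3.47 in GFP-negative 9, 11 and M. Each GFP-positive library was below each GFP-negative one, at 1.67 ± 0.468 and 3.03 ± 0.477. The log2 difference of -0.72 (SE 0.29, 95% interval -1.37 to -0.07) had an unadjusted p of 0.0334 in limma and did not pass (adjusted p = 0.0898). The gene has a single transcript in the tables (chromosome 15, 101071948 to 101111565).

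The activin type II receptors Acvr2a and Acvr2b overlapped between the groups. Acvr2a stood at 2.44, 1.85 and 2.03 in GFP-positive and at 2.69, 2.69 and 2.44 in GFP-negative libraries (chromosome 2, 48704121 to 48793281). Its log2 difference was -0.26 (95% interval -0.83 to 0.32, adjusted p = 0.458), and unnamed models of 2 exons at its end, where Orc4 overlaps on the opposite strand, held 8.67% to 29.2% of the locus. Acvr2b stood at 2.09, 1.31 and 1.00 in GFP-positive and at 1.32, 1.18 and 1.46 in GFP-negative libraries (chromosome 9, 119231184 to 119264061). Its log2 difference was 0.08 (95% interval -0.59 to 0.75, adjusted p = 0.854), and GFP-positive 2 was the high library. Its reads were divided mainly between coding transcripts of 3573 nt (0.327 to 1.14) and 3175 nt (0.442 to 0.783), with 0 to 0.288 on one of 3223 nt. The intervals of both genes hold for median-ratio scaling and for values with 0.5 added, which compresses changes at these levels. With an equal sum of FPKM, Acvr2a was -1.12 and passed (adjusted p = 0.0273).

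Amhr2, the type II receptor for AMH, was the receptor with the highest level. It stood at 19.7, 62.4 and 31.6 scaled FPKM in GFP-positive 2, 4 and 7 and at 34.9, 7.06 and 26.7 in GFP-negative 9, 11 and M, nearly all from the transcript of 11 exons (chromosome 15, 102353802 to 102363068). The groups overlapped, at 37.9 ± 22.0 and 22.9 ± 14.3, and the log2 difference of 0.83 (95% interval -0.55 to 2.21) did not pass (adjusted p = 0.323). As for Inha, GFP-negative 11 was the low library, and without it the difference was 0.11. As for Amh, GFP-positive 4 was the high library.

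The 250 bases before the Amhr2 start (RefSeq, GRCm38.p6, chr15:102445117-102445366, plus strand) are shown because they hold the full motif of NR5A1, the orphan nuclear receptor of gonadal and adrenal cells. Capitals mark CAAGGTCA, which starts 232 bases before the start, and GGGCGG, 17 bases before it.
Amhr2: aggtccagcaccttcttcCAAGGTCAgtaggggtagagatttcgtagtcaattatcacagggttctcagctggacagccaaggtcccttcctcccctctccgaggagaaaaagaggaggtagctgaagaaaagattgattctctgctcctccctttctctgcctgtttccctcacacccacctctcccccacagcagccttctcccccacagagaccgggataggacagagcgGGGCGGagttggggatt
CAAGGTCA was on either strand of 1.33% of all promoters and, of the 7 matched genes, in Amhr2. Nr5a1 itself, chosen after its values were seen, stood at 22.6, 36.5 and 27.4 scaled FPKM in GFP-positive and at 26.9, 17.1 and 21.6 in GFP-negative libraries (log2 difference 0.39, adjusted p = 0.328). It was highest in GFP-positive 4 and lowest in GFP-negative 11, as Amhr2 and also Inha were. No link between this motif, Nr5a1 and the Amhr2 level was tested.

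Tgfbr3, which encodes the inhibin co-receptor betaglycan, was the lowest member. It stood at 1.14, 0.288 and 0.427 scaled FPKM in GFP-positive 2, 4 and 7 and at 0.722, 3.84 and 1.38 in GFP-negative 9, 11 and M (chromosome 5, 107254436 to 107437495). The transcript of 17 exons held 81.1% (GFP-positive 4) to 100% (GFP-positive 7) of the gene. A retained-intron transcript of 1402 nt was at most 0.0543, in GFP-positive 4, where it held 18.9%. GFP-negative 11 was the high library and GFP-positive 2 overlapped the GFP-negative range. The log2 difference of -1.02 (95% interval -2.14 to 0.10) did not pass (adjusted p = 0.147). Without GFP-negative 9 it was -1.43 and passed (adjusted p = 0.0476), and without GFP-negative 11 it was -0.54. Summed fibroblast markers, mostly Col1a1 and Col1a2 in these libraries, were likewise highest in GFP-negative 11 and then M. The part of fibroblasts in the Tgfbr3 values was not tested.

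**Figure D4:**
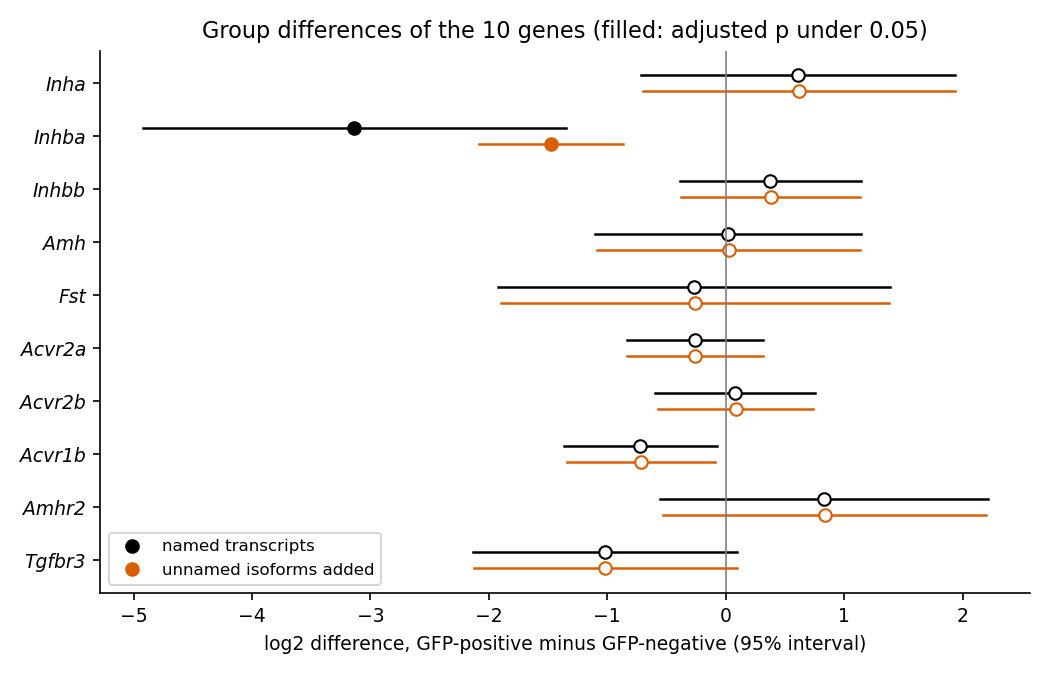
Log2 difference of each gene with its 95% interval from limma, for named transcripts (black) and with unnamed isoforms added (orange). Inhba lies below 0 on both definitions (-3.14 and -1.47), and the interval narrows when its unnamed isoforms are added.

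The rest of the pathway was read from 7 lists of 81 genes, of which 65 passed the filter. Of these, 2 rose and 13 fell in the GFP-positive libraries, 23.1% called against 25.9% over all features, with 3.08% higher (14.5% over all features) and 20.0% lower (11.4%). The median log2 difference was -0.40, against 0.02 over all features. The share called was close to that of all features, and nothing particular to the pathway is read from it.

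Among other ligands 1 of 9 tested genes fell and none rose. Tgfb1, which encodes TGF-beta 1, stood at 8.51 to 10.9 scaled FPKM in the GFP-positive and 23.2 to 44.0 in the GFP-negative libraries (log2 change -1.82, SE 0.30, adjusted p = 0.00840). The remaining inhibin beta genes gave no alternative beta subunit at a measurable level, with Inhbc listed at 0 in the 6 libraries and Inhbe at most 0.0253. Among other receptors 3 of 7 fell and none rose. Acvr1, a type I receptor that also binds activin, stood at 3.05 to 5.16 and 14.4 to 17.7 (log2 change -1.87, SE 0.27, adjusted p = 0.00688). Tgfbr2, the TGF-beta type II receptor, fell by 1.28 and the co-receptor gene Eng fell by 1.84 on the log2 scale.

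Among extracellular and membrane modulators 1 of 10 fell. That was Ltbp1, which encodes a protein that holds latent TGF-beta in the matrix, at 5.04 to 11.6 in GFP-positive and 29.0 to 58.0 in GFP-negative libraries (log2 change -2.43, SE 0.37, adjusted p = 0.00740). Among precursor processing enzymes 1 of 5 fell. Furin, a protease that cleaves the precursors of this family, stood at 3.77 to 10.9 and 22.9 to 63.2 (log2 change -2.73, SE 0.47, adjusted p = 0.00953).

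Among SMAD proteins and partners 1 of 13 rose and 3 fell. Smad3, which relays activin and TGF-beta signals, stood at 2.26 to 4.44 in the GFP-positive and 7.40 to 21.5 in the GFP-negative libraries (log2 change -1.84, SE 0.40, adjusted p = 0.0162). Its shared partner Smad4 fell by 1.30 and the ubiquitin ligase gene Smurf1 fell by 1.89 on the log2 scale. Smad6, an inhibitory SMAD, rose by 0.99, and with libraries scaled to an equal sum of FPKM this was 0.09 and did not pass. Smad2, also a relay of activin signals, was not called (log2 difference 0.50, adjusted p = 0.212). Among immediate SMAD target genes 2 of 9 fell, the receptor inhibitor gene Pmepa1 (log2 change -1.21) and the cell cycle inhibitor gene Cdkn1a (-1.22).

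**Figure D5:**
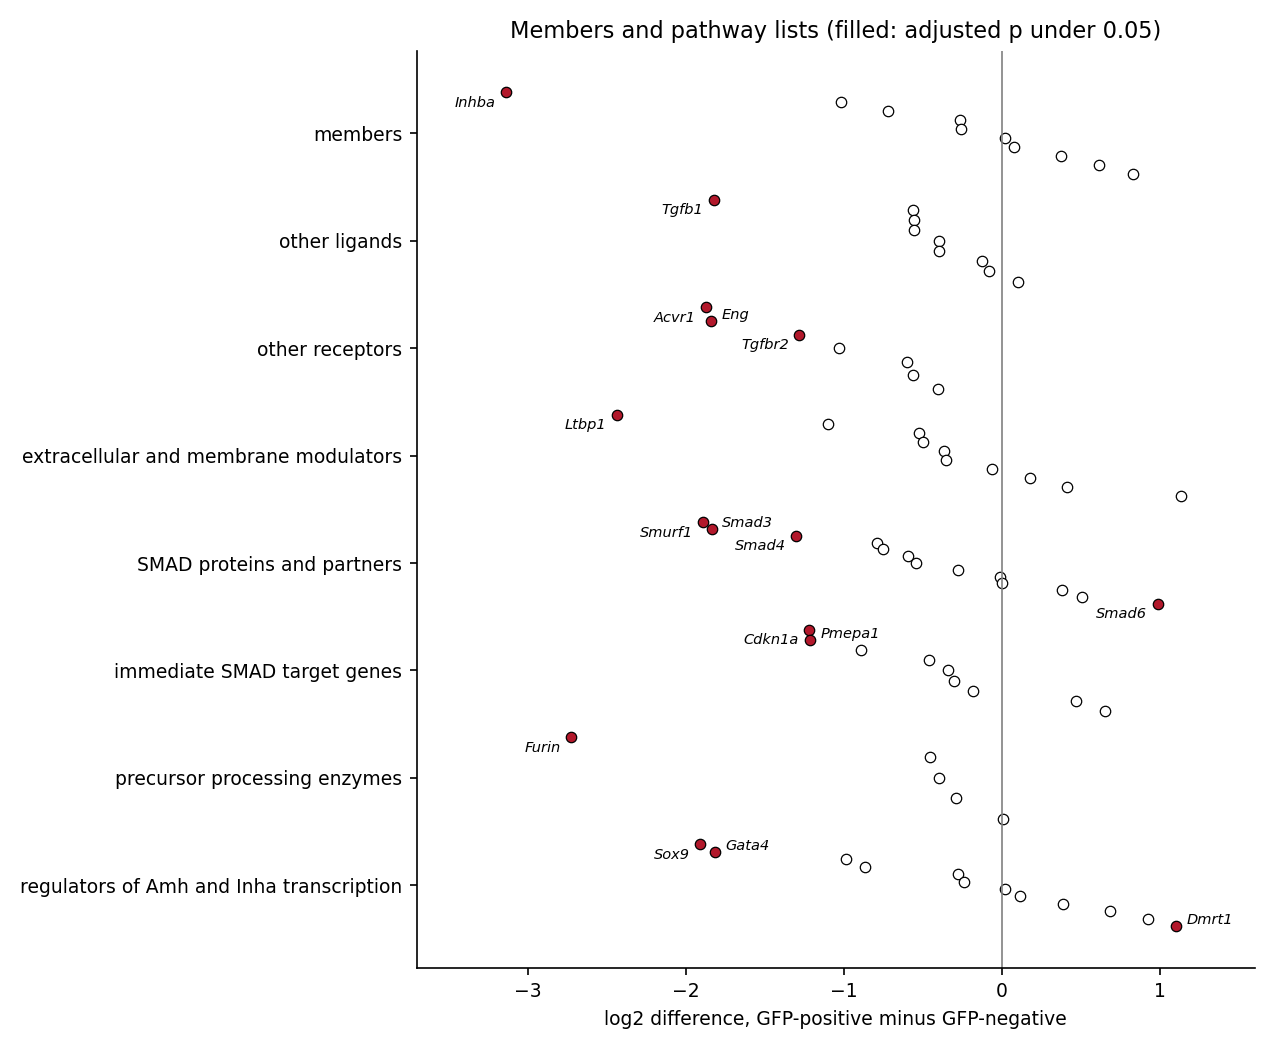
Log2 differences of the tested members and pathway genes, one point for each gene, grouped by list; filled points passed the test and are named. Calls lie mostly to the left of 0, with Smad6 and Dmrt1 to the right.

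Among 12 tested regulators of Amh and Inha transcription 1 rose and 2 fell. Sox9, which activates Amh in fetal Sertoli cells, stood at 9.26 to 16.5 in the GFP-positive and 37.7 to 55.9 in the GFP-negative libraries (log2 change -1.91, SE 0.31, adjusted p = 0.00799), while the Amh groups overlapped. Gata4, which also binds the Amh and Inha promoters, fell by 1.81 for named transcripts and stood 0.77 higher over its whole assembled locus, where it did not pass. Dmrt1, a transcription factor gene of Sertoli and germ cells, rose by 1.10, and with libraries scaled to an equal sum this was 0.06 and did not pass. Of the 15 called pathway genes, leaving out GFP-positive 7 kept 5 and leaving out GFP-negative M kept 4. With no filter on low values 7 were. Tgfb1, Acvr1, Ltbp1 and Sox9 were called under each of the 17 alternatives.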

How the data were processed

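Total RNA was treated with DNase, ribosomal RNA removed and strand-specific libraries made by the dUTP method, per the labels' protocols. Trimmomatic, HISAT2, StringTie and the build mm39 are named, without versions, per the submitters' processing notes; the assembly's strand setting is not stated. The authors deposited 1 table of 153503 transcripts per library with FPKM and mean per-base coverage, per the file headers. Coverage over FPKM is constant within a library and gave the aligned bases.

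A gene's FPKM was summed over transcripts with its symbol, and loci without a symbol kept their identifier. Unnamed isoforms at named loci (7902 transcripts, 5.36% to 8.16% of a library's FPKM) were left out, and added back in an alternative where the locus had 1 symbol, with scaling recomputed. Scaling between libraries used median ratios over 12377 features with a mean of at least 1 and no 0. Features with a longest transcript under 200 nt or a mean under 0.5 were left out. The test was limma 3.58.1 under R 4.3.3 on log2 of scaled FPKM plus 0.5 (mean-variance trend, Benjamini-Hochberg over all features, threshold 0.05), GFP-positive minus GFP-negative. This scale understates changes of low genes. Differences, SE, intervals and adjusted p-values are limma's, and levels are mean ± SD of 3 libraries. Simulated data were used to check the fit. For ratios the test was an exact permutation over libraries, two-sided, in Python 3.11.15.

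The members and lists were chosen with earlier results of these data known. Every member is named, with up to 6 called genes per pathway list, or the 2 highest if none. Transcripts with at least 10% of a member's FPKM in any library are named. Alternatives varied the pseudocount, filter, scaling, variance model, gene definition, length trend and libraries. Gene positions are mm39 from the tables and promoters GRCm38.p6 from RefSeq, with no conversion.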

Additional observations from a re-analysis of the deposited data

How the results depend on the processing

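The lower level of Inhba kept its direction under each of 17 alternatives (log2 difference -4.21 to -1.47). For named transcripts it did not pass with no filter on low values (adjusted p = 0.104), with the trend in transcript length removed (-2.47, adjusted p = 0.0686), or on leaving out any of GFP-positive 2, GFP-positive 7 and GFP-negative M (0.0667, 0.0893 and 0.0860). With the unnamed isoforms added, 9 further alternatives chosen after seeing the data gave -2.45 to -0.87, and the call was lost without GFP-negative M (-1.47, adjusted p = 0.0545).

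The count of members called, 1, was 0 with no filter on low values and 0 with the length trend removed (2 and 1 members at an unadjusted p under 0.05 in limma), and 4 with an equal sum of FPKM (Inhba, Acvr2a, Acvr1b and Tgfbr3). Leaving out a library gave 0 to 2. The count was 0 without GFP-positive 7 or GFP-negative M (1 member at an unadjusted p under 0.05 in each), 2 without GFP-negative 9 (Inhba and Tgfbr3) and 1 without GFP-positive 2, which was Fst. The count of pathway genes called, 15, was 8 with no filter, 40 with an equal sum, and 4 to 21 without 1 library. With an equal sum the median of all features moved from 0.02 to -0.87, and the split of all calls from 2186 higher and 1729 lower to 542 and 6441. All calls numbered 3915, against 1084 when unfiltered, 2280 after removing the length trend and 466 to 5632 without 1 library (583 without GFP-positive 7, 466 without GFP-negative M). Fewer libraries or more features were tested in some of these fits; otherwise the cause was not tested.

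Members that did not pass changed sign in some settings. With an equal sum Inha was -0.44, Inhbb -0.67, Amh -0.95, Amhr2 -0.20 and Acvr2b -0.68. Inha was -0.24 after quantile normalization. Amh was -0.0027 with FPKM as deposited and -0.60 over the whole locus, which also holds Sf3a2. With the length trend removed Amh was -0.31 and Acvr2a 0.16. Without 1 library Inha ranged from -0.16 to 1.06, Fst from -1.25 to 0.36, Amh from -0.51 to 0.37 and Acvr2b from -0.12 to 0.28. The ratio of beta subunits to Inha ranged from -1.30 to 0.11, Fst to beta subunits from -1.40 to 0.47 and Amh to Inha from -1.22 to 0.23. No paired analysis was possible because the groups share no replicate number. Depth in reads is unknown, so low values such as Tgfbr3 carry no counting error here.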

Other observations

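Fstl3, which encodes the follistatin-like antagonist of activin, was lower in GFP-positive 2 than in GFP-positive 4 and 7, while Fst was higher there. It stood at 9.13, 77.7 and 68.4 scaled FPKM in GFP-positive 2, 4 and 7, where Fst stood at 22.5, 2.75 and 1.96. In GFP-negative 9, 11 and M Fstl3 stood at 64.7, 39.2 and 56.1. The log2 difference between the groups was -0.50 and did not pass (limma adjusted p = 0.617). GFP-positive 2 was thus the library with the highest Fst and the lowest Fstl3 of the 6. Fstl3 was chosen after its values were seen, and no test was made on a single library.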
